A study of Mus musculus with 4 samples.

Results

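Alveolar macrophages of the mouse lung were taken from single-cell RNA libraries as the barcodes that carried UMIs (unique molecular identifiers, the counted RNA molecules) of at least 3 of 10 marker genes, Ear1, Ear2, Marco, Siglecf, Plet1, Krt79, Atp6v0d2, Fabp1, Mrc1 and Car4, with Marco, Krt79, Atp6v0d2 or Plet1 among them, and no UMI of the lymphocyte genes Cd79a and Cd3e or of the endothelial genes Pecam1 and Cdh5. The rule was met by 58 of the 27495 lung barcodes that had at least 200 genes and at most 10% mitochondrial UMIs, 24 in the metastasis lung and 34 in the sham lung. In blood none of 8597 barcodes of mice with metastases and none of 13029 barcodes of sham mice met it, counts that allow shares of up to 0.0349% and 0.0230%.

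The metastasis group had received 800000 B16F10 cells, a melanoma line of C57BL/6 origin, by injection into the spleen, and the sham group saline by the same route. The spleen was removed at once in both groups, and every mouse also received 250000 B16F10 cells under the skin, so the sham mice bore a tumour too and neither group had a spleen. The mice were female C57/Bl6 animals of 6 to 8 weeks, and the organs were taken on day 7, with CD45 kits used to enrich leukocytes. There was 1 library per group and tissue, and the labels do not give the number of mice behind it, so every difference between metastasis and sham macrophages below compares 1 library with 1 library and has no replicate check.

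Alveolar macrophages live on the airway side of the alveolar wall, where they take up and break down surfactant, debris and inhaled particles. In the mouse they depend on granulocyte-macrophage colony-stimulating factor from the epithelium and on the nuclear receptor PPAR gamma, and they carry an unusual set of lipid-handling genes for macrophages. They are also a known source of interleukin-1 and of neutrophil-attracting chemokines when the lung is stimulated, and the title of the series names IL-1 and neutrophils.

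A pair of the marker genes, Ear1 and Ear2, encode eosinophil-associated ribonucleases on chromosome 14 and are near-identical copies. Some of their counts could therefore be split between them and are uncertain one by one. Ear2 was still counted without Ear1 in non-classical monocyte-like lung cells, described below. These held 207 Ear2 UMIs in metastasis and 161 in sham, and no Ear1 UMI in either. The bases before the starts of Ear1 and Ear2 show the likeness of the pair. They are given 5′ to 3′ from RefSeq on GRCm38.p6, Ear1 at chr14:43819640-43819889 on the minus strand and Ear2 at chr14:44102404-44102653 on the plus strand, with capitals at a match to the C/EBP letters TTGCNNAA. The Ear1 window lies within the longer GENCODE gene model of Ear1 and outside its exons.

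Ear1: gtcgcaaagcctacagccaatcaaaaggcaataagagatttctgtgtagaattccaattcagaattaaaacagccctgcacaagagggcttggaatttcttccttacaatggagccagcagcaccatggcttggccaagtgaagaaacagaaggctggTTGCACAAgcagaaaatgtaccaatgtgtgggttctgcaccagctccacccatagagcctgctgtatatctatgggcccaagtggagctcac
Ear2: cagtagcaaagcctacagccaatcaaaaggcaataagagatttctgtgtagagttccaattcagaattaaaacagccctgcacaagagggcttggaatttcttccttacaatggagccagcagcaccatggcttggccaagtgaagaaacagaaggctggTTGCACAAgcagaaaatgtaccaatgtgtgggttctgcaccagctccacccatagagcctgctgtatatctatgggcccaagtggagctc

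Of 248 aligned bases in these windows 246 were identical, with 4 gap positions, and their longest coding transcripts in GENCODE, of 713 and 719 bases, were 96.9% identical over the aligned bases. The next pair of sequences belongs to Il1b and Cxcl2, the cytokine and the chemokine that were lower in macrophages of the metastasis lung and higher in that lung's other cells. They come from the same RefSeq table, Il1b at chr2:129371140-129371389 on the minus strand and Cxcl2 at chr5:90903649-90903870 on the plus strand. The last 28 bases of the Cxcl2 window are left out because GENCODE places them in an exon. Capitals mark matches to the NF-kB letters GGANTTTCC.

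Il1b: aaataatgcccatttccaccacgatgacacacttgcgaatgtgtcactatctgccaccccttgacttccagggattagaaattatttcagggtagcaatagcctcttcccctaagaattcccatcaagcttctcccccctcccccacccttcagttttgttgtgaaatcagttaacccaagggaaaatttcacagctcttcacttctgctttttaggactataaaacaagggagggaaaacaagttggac
Cxcl2: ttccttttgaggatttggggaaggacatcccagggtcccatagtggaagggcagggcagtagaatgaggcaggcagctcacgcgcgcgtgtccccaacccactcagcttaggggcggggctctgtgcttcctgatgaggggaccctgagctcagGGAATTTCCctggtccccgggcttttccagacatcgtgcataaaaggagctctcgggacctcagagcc

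The Cxcl2 window held 1 NF-kB match and the Il1b window held none. Both strands were searched for these letters, for C/EBP, for PU.1 (GAGGAAG) and for AP-1 (TGANTCA). Among 32817 RefSeq windows of 250 bases, 1.07% held the NF-kB letters, 9.57% the C/EBP letters, 10.6% those of PU.1 and 6.75% those of AP-1. The matches describe letters only, and none of the 4 windows held those of PU.1 or AP-1.

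The macrophages held 574 to 17480 UMIs with a median of 6180 in the metastasis lung and 546 to 18528 with a median of 7005 in the sham lung, against medians of 4072 UMIs over all kept cells of the metastasis lung and 3132 over those of the sham lung. The median number of genes was 2485 in metastasis and 2743 in sham macrophages. Both lung libraries contained much haemoglobin RNA, 78.1% of all UMIs in the metastasis library and 65.7% in the sham library, so levels below are counts per 1000000 (CPM), taken as UMIs of a gene per 1000000 UMIs outside haemoglobin. On that base the pooled macrophages held 139391 UMIs in the metastasis lung and 199839 in the sham lung, and 1 UMI equals 7.17 CPM in metastasis and 5.004 CPM in sham macrophages. Haemoglobin made over 5% of the UMIs in 4 of 24 metastasis macrophages and in 8 of 34 sham macrophages. The lung libraries shared 316 barcodes, 1.01% of the metastasis and 0.875% of the sham barcodes. No macrophage barcode occurred as a macrophage in both, but 1 metastasis macrophage shared its barcode with some barcode of the sham lung and 2 sham macrophages shared theirs with the metastasis lung.

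Macrophages made up 0.180% of kept cells in the metastasis lung (95% exact binomial interval 0.115 to 0.267%) and 0.241% in the sham lung (0.167 to 0.336%). The ratio of the shares, metastasis over sham, was 0.747 with an interval of 0.424 to 1.30. When barcodes with over 50% of their UMIs from haemoglobin were left out of both counts, the shares were 0.326% in metastasis and 0.242% in sham, and the ratio was 1.35 (0.745 to 2.41). The direction of the share therefore depends on the base, and both intervals include equal shares. Intervals here and below cover counting error only.

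The genes of the rule were used to pick the cells, so their levels describe the choice. Mrc1, the mannose receptor CD206, was at 1349 CPM in metastasis macrophages and 1636 CPM in sham macrophages, and at 2.57 and 1.86 CPM in the other kept cells of the same libraries. Plet1, a glycolipid-anchored surface protein, was at 968 CPM in metastasis and 1246 in sham macrophages, and Atp6v0d2, part of the lysosomal proton-pumping ATPase, at 890 and 941. Marco, a scavenger receptor that often serves as the textbook marker, was sparse, with 13 UMIs in 6 metastasis cells and 7 UMIs in 3 sham cells. Siglecf, a sialic acid-binding lectin, had UMIs in 9 of 24 metastasis and 13 of 34 sham macrophages. Ear2 was at 1234 CPM in metastasis and 1346 in sham macrophages. It was not particular to them, at 293 and 588 CPM in the non-classical monocyte-like lung cells. In both libraries most members carried 6 or more of the 10 genes, but no metastasis macrophage and 6 sham macrophages had exactly 3, and these 6 cells had a median of 1082 UMIs and 5 UMIs of Chil3 in all. The endothelial genes kept out 3 metastasis barcodes, with a median of 7323 UMIs, and the lymphocyte genes 6 sham barcodes, with a median of 8538.5 UMIs. Just outside the threshold, 3 metastasis and 2 sham barcodes carried exactly 2 of the genes, with 8 Chil3 UMIs in the metastasis ones and none in the sham ones.

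Markers outside the rule were also higher than in the pooled other kept cells, which is a description because the rule chose the cells. All 20 further alveolar macrophage markers had a UMI, but Slc39a2 had only 2 in metastasis and 7 in sham macrophages. Lyz2, at 11557 CPM in metastasis and 11014 in sham macrophages, was not particular to them. The monocyte-like lung cells described below held 13039 and 6460 CPM in the classical and 8231 and 13709 in the non-classical class. Chil3, a chitinase-like secreted protein also called Ym1, was at 11938 CPM in metastasis and 9843 in sham macrophages, against 166 CPM in other cells of the metastasis lung and 22.4 in those of the sham lung. Lpl, the lipase that releases fatty acids from lipoproteins, was at 1959 CPM in metastasis and 2397 in sham macrophages and under 4 CPM in the other cells of either library. Cidec, a lipid droplet protein, was at 359 CPM in metastasis and 335 in sham macrophages and under 1 elsewhere.

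**Figure D1:**
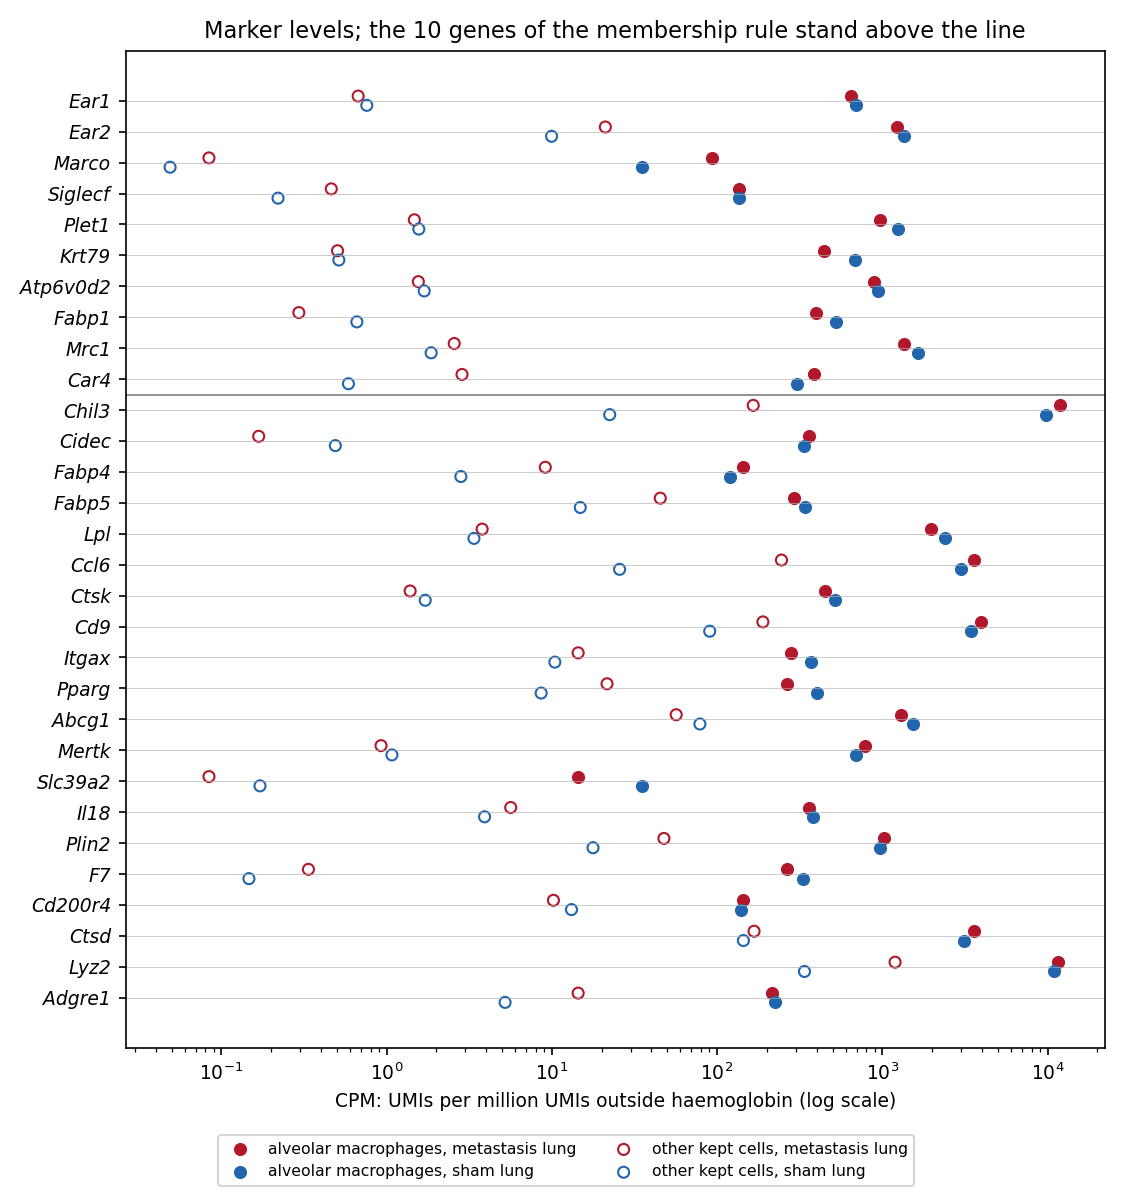
Levels of the 10 rule genes (above the line) and 20 further alveolar macrophage markers, in CPM outside haemoglobin on a log axis; filled points are the macrophages and open points the other kept cells, red for the metastasis lung and blue for the sham lung, 1 library each. Each filled pair lies to the right of its open pair, and the 2 filled points of most genes lie close together, as for Chil3 at 11938 (metastasis) and 9843 (sham).

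The genes outside the rule that stood highest over the other lung cells included several not usually listed for macrophages. Kcnip4, a potassium channel-interacting protein, had 624 UMIs in 19 of 24 metastasis cells and 982 UMIs in 25 of 34 sham cells, 4477 CPM in metastasis and 4914 in sham macrophages. Among B cells, which should lack it, 1 of 2394 in the metastasis lung and 15 of 5354 in the sham lung carried a Kcnip4 UMI, at median depths of 1874 and 2481 UMIs. Htr2c, a serotonin receptor, was at 624 CPM in metastasis and 420 in sham macrophages, and Lepr, the leptin receptor, at 452 and 736. Slc7a2, a carrier of arginine and other cationic amino acids, was at 409 CPM in metastasis and 310 in sham macrophages, and F7, coagulation factor VII, at 265 and 330. Mertk and Axl, receptors for the clearance of dead cells, and Ctsk, a lysosomal protease, were among the same 15 genes, none of which passed the call between metastasis and sham.

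Most markers of other cell types were at or near 0, and the exceptions included those named here. Nr4a1, of the non-classical monocyte list, had 35 UMIs in 12 metastasis macrophages and 55 in 18 sham macrophages. Clec9a, of the dendritic cell list, had 2 UMIs in metastasis and 10 in sham macrophages. Calcrl, of the endothelial list, had 9 and 14 UMIs, and Gsn, of the stromal list, 9 and 17. Of the red cell list, beside haemoglobin itself, Alas2 had 18 UMIs in metastasis and 46 in sham macrophages, and Bpgm 29 and 47. Of 12 interstitial macrophage markers, 10 had no UMI in any of the 58 cells, and the whole list held 2 UMIs in metastasis and none in sham macrophages. Of 10 epithelial markers 7 had no UMI, and Sftpc, a surfactant protein of alveolar type II cells, had none in metastasis and 1 in sham macrophages. Epcam, an epithelial adhesion molecule, had 14 UMIs in 9 metastasis macrophages and 22 UMIs in 12 sham macrophages, 100.4 and 110.1 CPM, against 4.71 CPM in the other cells of the metastasis lung and 6.42 in those of the sham lung. Fn1, fibronectin, which stands in the classical monocyte list, was at 689 CPM in metastasis and 626 in sham macrophages. The pooled other cells held 30.8 and 12.1 CPM. Classical monocyte-like lung cells, described below and chosen partly by Fn1, held 749 CPM in metastasis and 496 in sham. Non-classical monocyte-like cells held 289 and 259 CPM. The whole classical monocyte list held 100 UMIs in metastasis macrophages, 96 of them of Fn1, and 139 in sham macrophages, 125 of them of Fn1. Scgb1a1, a secretory protein of airway epithelium, had UMIs in 13 of 24 metastasis macrophages and 17 of 34 sham macrophages. It also had UMIs in 61.1% of metastasis and 32.2% of sham B cells, which were shallower. The source of these UMIs was not tested. Neutrophil markers held 10 UMIs in metastasis and 13 in sham macrophages, and 3 of the 8 had no UMI in either. Of 8 melanoma genes only Mitf, which macrophages express as well, had UMIs, 55 in metastasis and 83 in sham macrophages.

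A few members stood apart. In the metastasis lung 1 cell carried 22 UMIs of T and NK cell markers and 67 of the 68 Ccl5 UMIs, with 75 UMIs of Chil3 beside them. In the sham lung 1 cell carried 15 T and NK cell and 13 classical monocyte UMIs, 32 Ccl5 UMIs, 3 rule genes and no Chil3. In the metastasis lung 2 further cells carried 20 and 10 of 24 cell cycle genes. The Scrublet doublet score was above 0.3 in none of the 58.

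To ask how macrophages of the metastasis lung differed from sham ones, UMIs were summed over the cells of each library and the ratio was taken with its exact 95% counting interval. A gene was measured with at least 50 UMIs over both pools and a mean of at least 20 CPM, and called when it differed at least 2-fold with an interval that excluded equality. Of 1285 measured genes 11 were called higher, 0.856%, and 20 were called lower, 1.56%, in metastasis macrophages, 2.41% in either direction. The median log2 ratio over all measured genes was -0.01, and the middle of the distribution ran between -0.27 and 0.26. Precision was limited by the number of cells. The intervals had a median width of 1.29 on the log2 scale over all measured genes and 0.929 over the 576 genes with at least 100 UMIs.

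**Figure D2:**
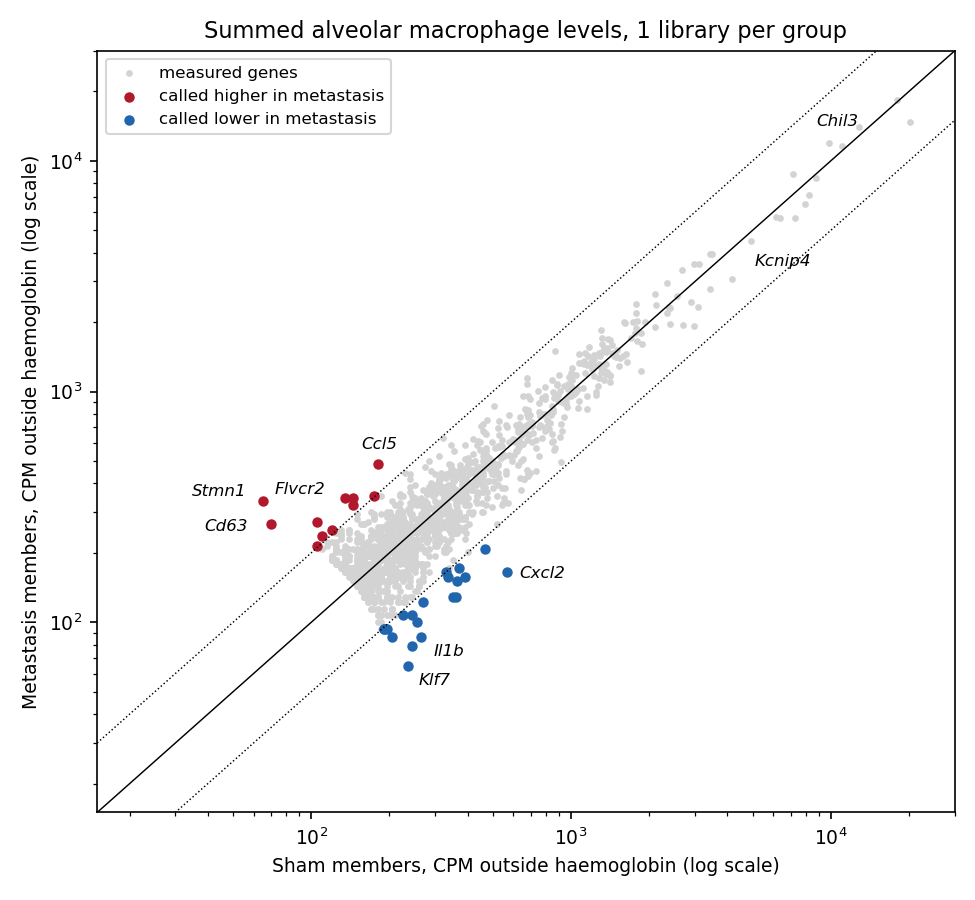
Summed levels of the 1285 measured genes in metastasis macrophages (vertical axis) and sham macrophages (horizontal axis), in CPM on log axes; the solid line marks equal levels and dotted lines 2-fold differences. Of all measured genes 11 (red) were called higher and 20 (blue) lower in metastasis, and abundant genes such as Chil3 and Kcnip4 lie near the line.

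The interleukin-1 genes come first because the title of the series names IL-1. Il1b, the precursor of interleukin-1 beta, had 12 UMIs in metastasis and 53 UMIs in sham macrophages, 86.1 CPM in metastasis and 265 in sham. UMIs were found in 6 of 24 metastasis macrophages with at most 4 per cell, and in 14 of 34 sham macrophages with at most 10 per cell. The log2 ratio, metastasis over sham, was -1.62 (-2.66 to -0.70). Among B cells, which should lack the gene, 3.84% in the metastasis lung and 2.05% in the sham lung carried an Il1b UMI, below the 25% of metastasis and 41.2% of sham macrophages, which were deeper. With each cell thinned to 2000 UMIs, 4 of 21 metastasis and 9 of 25 sham macrophages carried Il1b, with 3 metastasis and 9 sham cells too shallow to be included.

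In all other kept lung cells Il1b ran the other way, at 743 CPM in the metastasis lung and 52.3 CPM in the sham lung (log2 3.83, 3.76 to 3.89). Markers of neutrophils moved with it in the same pool. S100a8 was at 9528 CPM in the metastasis and 211 in the sham lung, and Retnlg at 2632 and 45.7 CPM. The whole list of 8 neutrophil markers summed to 28734 CPM in the other cells of the metastasis lung and 645 CPM in those of the sham lung, and the part of this in Il1b was not tested. The difference between the macrophage ratio and that of the other cells was not tested, since each rests on the same pair of libraries. In metastasis macrophages Il1b was at 86.1 CPM against 743 CPM in the other cells of that lung, and in sham macrophages at 265 CPM against 52.3 CPM.

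Cxcl2, a chemokine that attracts neutrophils, had the same pattern. It held 23 UMIs in 6 of 24 metastasis macrophages and 113 UMIs in 12 of 34 sham macrophages, 165 CPM in metastasis and 565 in sham, a log2 ratio of -1.78 (-2.49 to -1.12). At least 5 UMIs were seen in 1 metastasis macrophage, with 10, and in 7 sham macrophages, with up to 30. Few cells carried the transcript in either library, and most cells of both had none. Without the cell of most Cxcl2 UMIs in each library the log2 ratio was -2.14, and without cells over 5% haemoglobin -3.21. Among B cells 2.01% in the metastasis lung and 0.261% in the sham lung carried a Cxcl2 UMI. In the other kept cells Cxcl2 was at 419 CPM in the metastasis lung and 20.9 in the sham lung (log2 4.32, 4.22 to 4.43).

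Lung monocytes, chosen by at least 3 of their own markers, were set beside the macrophages for these genes. They held no UMI of the lymphocyte and endothelial genes of the rule. The non-classical class also needed a UMI of Ace or Treml4, and the classical class one of Ccr2 or F13a1. Cells with UMIs of both neutrophil genes S100a8 and S100a9 were left out of the classical class only, so the 2 classes were not filtered alike. In classical monocyte-like cells (124 in metastasis, 155 in sham) Il1b was at 992 CPM in metastasis and 282 in sham (log2 1.81), and Cxcl2 at 61.2 CPM in metastasis and 307 in sham (log2 -2.32, -2.94 to -1.76). In non-classical monocyte-like cells (182 in metastasis, 75 in sham) Il1b was at 1770 and 1388 CPM (log2 0.35) and Cxcl2 at 348 and 175 (log2 0.99). The lower Cxcl2 was thus seen in classical monocyte-like cells too, whereas Il1b was higher in metastasis in both monocyte classes. S100a8, a neutrophil gene, was at 4918 CPM in the metastasis and 310 in the sham non-classical class, and its part in those values was not tested.

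Of the 22 interleukin-1 and inflammasome genes 18 had a UMI and 3 were measured, of which Il1b was called and none was higher, beside 1.56% called lower over all measured genes. Nlrp3, the inflammasome sensor, had 21 UMIs in metastasis and 52 in sham macrophages (log2 -0.79), and Il18, another cytokine cut by the inflammasome, was at 359 CPM in metastasis and 380 in sham (log2 -0.08, -0.63 to 0.45). Il1rn, the receptor antagonist, had 15 UMIs in metastasis and 27 in sham macrophages, and Il1a 4 and 11. The receptors Il1r1 and Il1r2 had no UMI in either pool, which allows up to 21.5 CPM in metastasis and 15.01 CPM in sham macrophages.

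The NF-kB response list, whose genes are known targets or inhibitors of that transcription factor, had 6 measured genes of 25, a median log2 ratio of -0.68 and a median of -0.01 over all measured genes. The 2 called genes were again Il1b and Cxcl2, both lower, beside 1.56% called lower over all measured genes. Rel, an NF-kB subunit, had 17 UMIs in metastasis and 46 in sham macrophages (log2 -0.92) and was not called, nor was Nfkb1 at 40 and 78 UMIs (log2 -0.44). Nfkbia, the inhibitor induced by NF-kB, stood at log2 0.07 and Tnfaip2 at 0.47. Tnf was below the measured limit with 4 UMIs in metastasis and 18 in sham macrophages. Summed over the list, the level was 2102 CPM in metastasis and 2912 in sham macrophages.

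**Figure D3:**
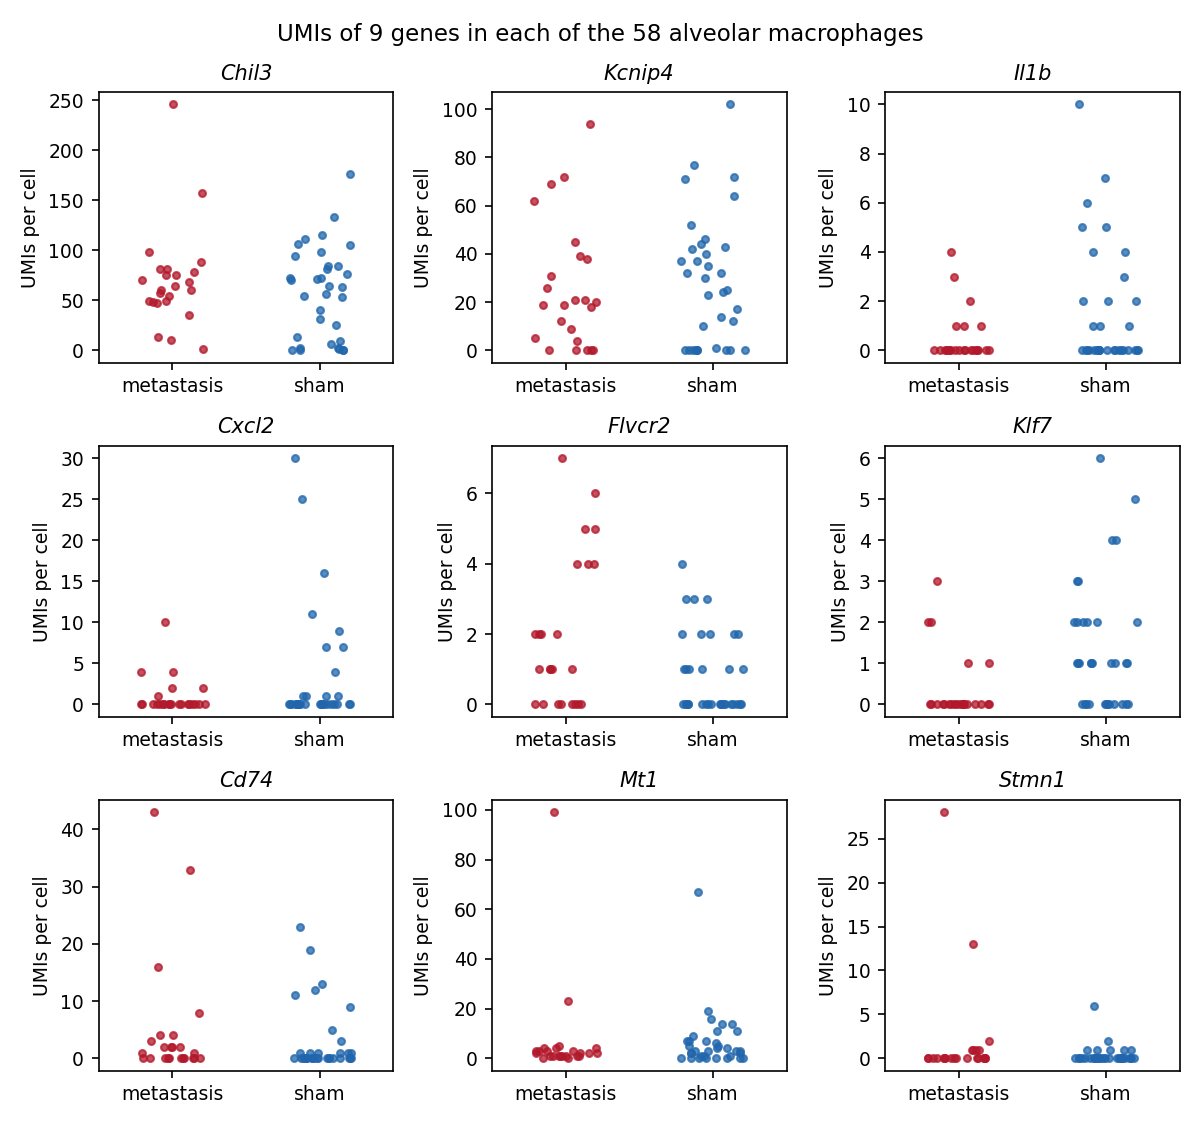
UMIs of 9 genes in each of the 24 metastasis (red, left) and 34 sham (blue, right) macrophages; every point is 1 cell, spread sideways only for visibility, and the vertical axis gives UMIs per cell. Il1b reached 4 UMIs in metastasis and 10 in sham cells, and Cxcl2 10 and 30. The 2 highest metastasis cells held 99 and 23 UMIs of Mt1, 43 and 33 of Cd74, and 28 and 13 of Stmn1.

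Klf7, a Krüppel-like transcription factor, had 9 UMIs in 5 of 24 metastasis cells and 47 UMIs in 22 of 34 sham cells, 64.6 CPM in metastasis and 235 in sham (log2 -1.86, -3.08 to -0.82). In the other kept cells it was level, 109 CPM in metastasis and 109 in sham. Mapkapk2, a kinase that acts below p38 and stabilises cytokine mRNAs, was at 129 CPM in metastasis and 350 in sham macrophages (log2 -1.44). Rgs2, a brake on G protein signalling, was at 122 and 270 CPM (log2 -1.15).

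Myo9a, an unconventional myosin, was at 78.9 CPM in metastasis and 245 in sham macrophages (log2 -1.64). Cltc, the clathrin heavy chain, had 29 UMIs in metastasis and 93 in sham (log2 -1.16), and Asap1, an activator of Arf GTPase hydrolysis, 24 and 74 (log2 -1.10). Gnptab, the enzyme that marks lysosomal proteins for sorting, was at 86.1 CPM in metastasis and 205 in sham macrophages (log2 -1.25). Mat2a, which makes the methyl donor S-adenosylmethionine, stood at log2 -1.35 and Ubl3, a ubiquitin-like protein, at -1.31.

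Kcnn3, a calcium-activated potassium channel, was under 1 CPM in the other cells of either library. It had 21 UMIs in 16 of 24 metastasis macrophages and 73 UMIs in 20 of 34 sham macrophages, 151 CPM in metastasis and 365 in sham (log2 -1.28, -2.05 to -0.56). Most cells of both libraries carried a UMI of it. The remaining 8 genes called lower lay between log2 -1.48 and -1.001 and included Fosl2 and Pcna.

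Higher in metastasis macrophages were 7 genes that met every condition for being named. Flvcr2, a transporter of the feline leukaemia virus receptor family, had 48 UMIs in 16 of 24 metastasis cells and 29 UMIs in 15 of 34 sham cells, 344 CPM in metastasis and 145 in sham (log2 1.25, 0.55 to 1.96), and was under 1 CPM in the other cells of either library. Up to 7 UMIs per cell were seen in metastasis and up to 4 in sham. Ndufa7, a subunit of respiratory complex I, was at 273 CPM in metastasis and 105 in sham macrophages (log2 1.38, 0.57 to 2.22). The whole oxidative phosphorylation list did not share this, with none of 27 measured genes called and a median log2 ratio of 0.09.

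Vti1a, a SNARE protein of vesicle fusion, was at 344 CPM in metastasis and 135 in sham macrophages (log2 1.35), and Lrrfip2, a leucine-rich repeat partner protein, at 323 and 145 (log2 1.15). Tnfaip8, a cytosolic protein induced by tumour necrosis factor, stood at log2 1.10. Nfia, a nuclear factor I transcription factor, stood at 1.03 and Rnasek, a ribonuclease kappa, at 1.01, both close to the 2-fold limit. In 7 of 16 alternatives Nfia lost the call, and in 3 of 16 Rnasek did.

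**Figure D4:**
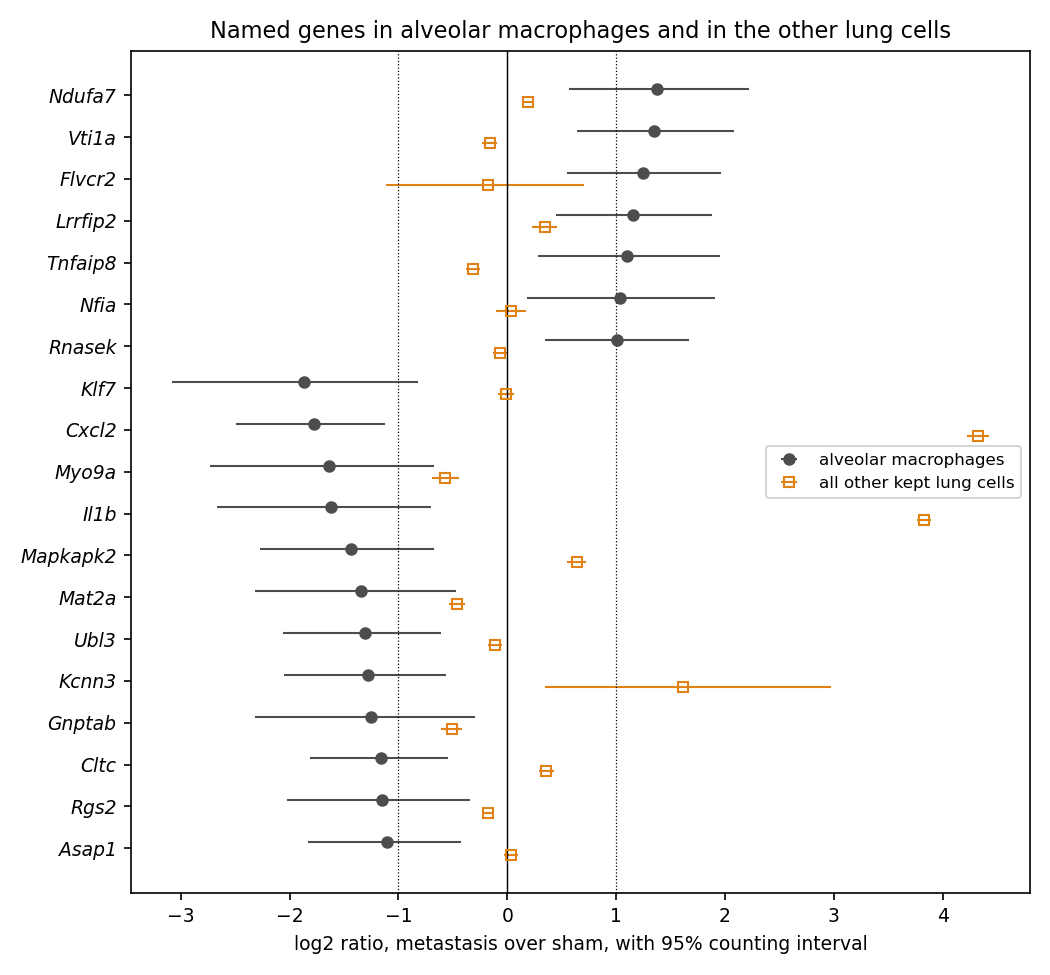
The log2 ratio, metastasis over sham, with its 95% counting interval, for the 19 named genes in macrophages (filled circles) and in all other kept lung cells (open squares); dotted lines mark 2-fold. Cxcl2 and Il1b lie below 0 in macrophages, at -1.78 and -1.62, and above 3 in the other cells, while most other genes lie near 0 in the other cells.

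The other 4 genes called higher are an unnamed gene model and 3 genes with over 33.3% of their metastasis UMIs in 1 cell. Ccl5, a chemokine of T and NK cells, was at 488 CPM in metastasis and 180 in sham macrophages, but the cell with T and NK markers held 67 of its 68 metastasis UMIs, and without the cell of most Ccl5 UMIs in each library the log2 ratio was -1.41. Cd63, a lysosomal tetraspanin, had 37 UMIs in metastasis and 14 in sham macrophages, 18 of the 37 in 1 cell and the rest spread over 11 others. It was found in 12 of 24 metastasis and 7 of 34 sham macrophages, and without the cell of most Cd63 UMIs in each library the log2 ratio was 1.59 (0.38 to 2.92), still called. Stmn1, a microtubule regulator high in dividing cells, had 47 UMIs in metastasis and 13 in sham (log2 2.37, 1.46 to 3.38), and the 2 cells rich in cycle genes held 28 and 13 of them.

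These 2 cells carried the cell cycle list as well. Its summed level was 2009 CPM in metastasis and 786 in sham macrophages, and 162 and 51 of the 280 metastasis UMIs lay in the 2 cells. They had 10 and 7 of the rule genes and 157 and 64 UMIs of Chil3. Mki67, which marks cycling cells, had 22 UMIs in metastasis and 1 in sham macrophages, and Mki67 or Top2a was found in 3 metastasis cells and 1 sham cell. Pcna, which also serves DNA repair, was lower in metastasis, at 13 and 38 UMIs (log2 -1.03). Without the 2 cells and those with T, NK or monocyte UMIs, the Stmn1 ratio was -0.92.

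The measured genes of the macrophages' own programme lay within 2-fold of level. Of the 17 measured markers outside the rule none was called, with a median log2 ratio of -0.07, 8 above 0 and 9 below. Of the 8 measured rule genes, which chose the cells, none was called, and 1 lay above 0 and 7 below. Krt79 was the lowest of these, at log2 -0.62 (-1.08 to -0.18). The intervals of Plet1, Mrc1 and Lpl also lay below equality, and those of Chil3, Ccl6, Cd9 and Ctsd above it. Pparg, the nuclear receptor of alveolar macrophage identity, had 37 UMIs in metastasis and 81 in sham macrophages (log2 -0.61, -1.21 to -0.03). Without the 2 cells rich in cycle genes and those with T, NK or monocyte UMIs it was called lower, at -1.10. Non-classical monocyte-like cells held Pparg too, at 265 CPM in metastasis and 519 in sham, beside 265 CPM in metastasis and 405 in sham macrophages. Csf2rb, the shared chain of the GM-CSF receptor, had 35 and 76 (log2 -0.60, -1.22 to -0.003), while Csf2ra, its specific chain, was at 215 CPM in metastasis and 205 in sham (log2 0.07). The intervals of Pparg and Csf2rb below equality belong to differences smaller than 2-fold. None of the 10 measured genes of the GM-CSF and surfactant list was called.

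Lipid handling, scavenging and lysosomal genes were also near level. None of 8 measured lipid uptake genes, 6 cholesterol export genes or 11 scavenging genes was called, with median log2 ratios of -0.15, 0.02 and 0.01. Olr1, a receptor for oxidised lipoprotein, was at 524 CPM in metastasis and 310 in sham macrophages (log2 0.76, 0.25 to 1.27), the highest ratio of the lipid uptake list. Of 20 measured lysosomal genes 1, Cd63, was called higher, beside 0.856% over all measured genes. Ctsd, the protease cathepsin D, was at 3587 CPM in metastasis and 3123 in sham (log2 0.20). Metallothionein Mt1 averaged 1198 CPM in metastasis and 1136 in sham macrophages, but 99 of the 167 metastasis UMIs lay in 1 cell. Without the cell of most Mt1 UMIs in each library, 68 UMIs remained in metastasis and 160 in sham macrophages. Over 16 alternatives the Mt1 log2 ratio ran from -1.19 to 0.27, so a level Mt1 depends on the setting.

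MHC class II genes, which present peptides to T cells, had a median log2 ratio of 0.68 over 4 measured genes with none called. Cd74, the invariant chain, had 121 UMIs in metastasis and 101 in sham macrophages (log2 0.78, 0.39 to 1.18), and H2-Ab1 49 and 36 (log2 0.96, 0.31 to 1.63). In metastasis 2 cells held 43 and 33 of the Cd74 UMIs and the median cell held 1. In sham the highest cells held 23 and 19 and the median cell none. With all cells the list had 279 UMIs in metastasis and 276 in sham macrophages. Without the 2 highest cells of each library 121 UMIs remained in metastasis and 179 in sham macrophages. The pools differ in size, with 139391 UMIs outside haemoglobin in metastasis and 199839 in sham before the removal. The remaining counts alone therefore give no direction.

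**Figure D5:**
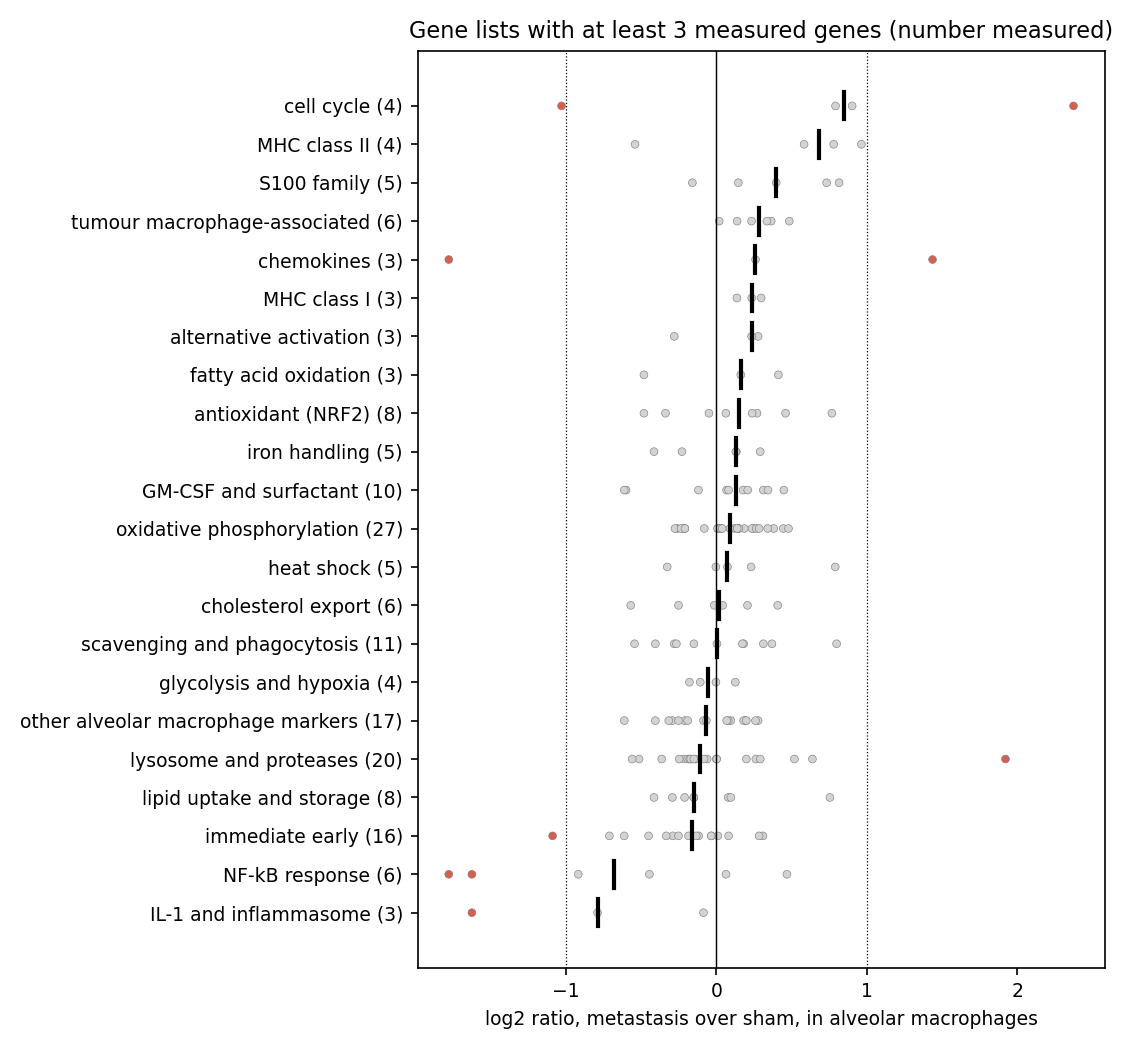
The log2 ratio, metastasis over sham, of every measured gene in the gene lists with at least 3 measured genes; points are genes, red where called, and black bars are list medians, with the number measured in brackets. The interleukin-1 and NF-kB lists have the lowest medians, -0.79 and -0.68, and the cell cycle and MHC class II lists the highest, 0.85 and 0.68.

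Early-response transcription factors were counted because they respond to tissue handling as well as to stimulation. Of 16 measured genes 1, Fosl2, was called lower, beside 1.56% over all measured genes, at 22 UMIs in metastasis and 67 in sham macrophages (log2 -1.09), and the list median was -0.16. Junb had 79 and 173 UMIs (log2 -0.61) and Fos 94 and 184 (log2 -0.45), while Jun stood at 0.31. Suppressive genes of tumour-associated macrophages gave no call among 6 measured genes. Cd274, which encodes PD-L1, had 16 UMIs in metastasis and 19 in sham macrophages, and Arg1, arginase 1, had no UMI in either.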

How the data were processed

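Gene-by-barcode matrices of whole-number UMI counts were deposited for 2 lung and 2 blood libraries. They were written by Cell Ranger 7.0.0, per the file headers; the submitters' processing notes also name Seurat 4.3.0.1, R 4.3.1 and the build GRCm38.p6, with no role given. The deposited counts include barcodes with few genes, which the thresholds in the report left out. Members, gene lists and tests were chosen with earlier results of these data known. Counts of genes with one symbol were summed, members were pooled per library, and ratios carry exact conditional binomial 95% intervals (scipy 1.17.1). Cells are not replicates, so no p-value is given. Named genes are the 12 highest and 12 lowest called ratios, if, judged in whichever pool had more of the gene, its level in macrophages was at least that of the other cells, at least 10% of members had a UMI and at most 33.3% of UMIs came from 1 cell, and they were neither rule genes nor unnamed models. Scrublet (scanpy 1.11.5) scored doublets and none was removed. The gene counts were recomputed under 17 alternative settings. The pooling and interval code was tested on simulated data. A floor of 3 counts limits genes with no UMI. Python 3.11.15, numpy 2.4.6 and pandas 2.3.3 were used.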

Additional observations from a re-analysis of the deposited data

Results flagged for a closer look

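Cxcl2 and Il1b ran in opposite directions in macrophages and in the other cells of the same lungs. Cxcl2 was lower in metastasis macrophages (log2 -1.78) and higher in the other kept cells of the metastasis lung (log2 4.32). Il1b was lower in metastasis macrophages (log2 -1.62) and higher in the other kept cells (log2 3.83). Within those other cells, classical monocyte-like cells had lower Cxcl2 in metastasis too (log2 -2.32), and higher Il1b (log2 1.81). The neutrophil genes S100a8 and Retnlg were higher in the pooled other cells of the metastasis lung (log2 5.50 and 5.85), and their part was not tested. The difference between the ratios was not tested, because each group is 1 library.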

How the results depend on the processing

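No paired analysis was possible because each group is 1 library and the labels give no replicate numbers that pair them. Of the 11 genes called higher in metastasis macrophages and the 20 called lower, the counts became 17 higher without cells over 5% haemoglobin, 17 higher without cells over 20%, 40 higher with each cell weighted equally, 1 higher and 3 lower with at least 100 UMIs, and 74 higher and 81 lower with at least 20 UMIs and no minimum level. The last 2 settings test fewer and more genes by construction; the cause of the others was not tested. The ratio of shares was 1.35 outside erythroid barcodes. Cxcl2 ranged from -3.21 to -1.72, Il1b from -1.95 to -1.49, Klf7 from -2.24 to -1.56 and Flvcr2 from 1.17 to 1.63, each with its call in all 16 alternatives. Stmn1 became -0.92, not called, without mixed or cycling cells. Mt1, at 0.08 in the main setting, ranged from -1.19 to 0.27. Ccl5 became -1.22 without those cells and -1.41 without the cell of most Ccl5 UMIs in each library, neither called. Among other genes given above, whether or not they met the conditions for being named, Nfia lost its call in 7 alternatives. Asap1 and Pcna lost theirs in 4 each, Rnasek in 3, Fosl2 in 2, and Tnfaip8, Mat2a, Rgs2, Ubl3 and Cd63 in 1 each. H2-Ab1 became called in 3, Rel in 2, and Nlrp3, Cd74, Car4 and Pparg in 1 each. The settings without mixed or cycling cells and without the top cell of a gene, with one that kept cells of at least 2000 UMIs, were chosen after seeing the data.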

Other observations

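Of 20 chemokine genes 3 were measured, of which Ccl5 was called higher and Cxcl2 lower, beside 0.856% called higher and 1.56% called lower over all measured genes. The third, Ccl6, was at 3580 CPM in metastasis and 2987 in sham macrophages (log2 0.26, 0.09 to 0.43). Among heat shock genes Hspa8, a constitutive chaperone, had 210 UMIs in metastasis and 174 in sham macrophages (log2 0.79, 0.49 to 1.09). Prdx5, a peroxide-removing enzyme, had 82 and 69 (log2 0.77, 0.29 to 1.25) and S100a6, a calcium-binding protein, 70 and 57 (log2 0.82, 0.29 to 1.35). Below the measured limit, Gpnmb, a glycoprotein of lipid-laden macrophages, had 29 UMIs in metastasis and 15 in sham macrophages, and Blvrb, biliverdin reductase B, 26 and 13. These genes were chosen after their values were seen. The iron storage genes Fth1, at 14040 CPM in metastasis and 12795 in sham macrophages, and Ftl1, at 8788 and 7176, were within 2-fold.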
